A study of Xenopus laevis with 20 samples.

Results

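The peaks of β-catenin and of the histone acetyltransferase p300 in foregut and hindgut explants of Xenopus laevis were compared with each other. The 2 deposited explant lists were taken whole, 16303 β-catenin and 15146 p300 peaks, which is 31449 of the 43980 peaks in the 4 lists of the series. A peak was called shared if it met a peak of the other protein by at least 1 bp, and unshared otherwise. By this rule 5865 β-catenin peaks (36.0%, exact 95% interval 35.2 to 36.7) and 5895 p300 peaks (38.9%, interval 38.1 to 39.7) were shared, and 10438 and 9251 were not. The shared peaks formed 5902 overlapping pairs.

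β-catenin is the nuclear effector of canonical Wnt signalling. It does not bind DNA itself, but is held there by partners such as the TCF/LEF factors, and its C-terminal part can recruit co-activators that include p300. p300 acetylates histones and is widely used to find active enhancers, whichever factor brought it there. In the vertebrate gut tube, Wnt activity is low in the foregut, which gives rise to organs such as liver, pancreas and lung, and high in the hindgut, which forms the intestine.

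Explants came from wild-type embryos at Nieuwkoop-Faber (NF) stage 20. The whole-embryo Smad1 and p300 libraries, whose lists are used below for comparison, were of the same stage. Treatment of the foregut and of the hindgut samples was with the DMSO vehicle or with 60 μM BIO, an inhibitor of GSK3 that stabilises β-catenin. BIO was given from stage NF12 on. Each of these 4 conditions had 1 ChIP and 1 input library for each protein, 16 libraries in all, and the number of explants per library is not given in the labels. The peak names state that the authors pooled the 4 conditions before calling, so 1 list per protein was left, with no replicate and no view of tissue or treatment. The 95% intervals given for shares are exact binomial (Clopper-Pearson) ones and take in counting error alone. Peaks are not replicates, so no p-value is given. Sharing therefore does not show that both proteins sat on the same DNA in the same tissue or under the same treatment. Read depth is unknown, and peak lists hold no expression values against which the tissues could be checked. Positions are as deposited, and since no source used here names their genome build, no gene or sequence is given for a peak.

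Where the proteins met, their peaks nearly coincided. The p300 summit lay a median of 30 bp from the β-catenin summit (quartiles 13 and 58 bp, 5902 pairs). Summits were within 10 bp in 20.4% of the pairs, within 50 bp in 70.5% (interval 69.3 to 71.6) and within 200 bp in 95.2%. In reference coordinates p300 lay at the higher position in 50.1% of the pairs and at the lower in 49.1%, and 47 pairs had both summits on the same base. Sites were not oriented by strand, so this split cannot show whether p300 lies on a fixed side of β-catenin. Each summit fell inside the other protein's peak in 97.2% of the pairs. Pairs were chosen by overlap, at median widths of 561 bp for β-catenin and 458 bp for p300. That rule by itself limits how far apart summits can lie, and no distance expected from the widths alone was computed. The β-catenin peak was the wider in 77.4%, and in 54.6% the whole p300 peak lay within it. The reverse nesting was found in 8.81%, and the remaining 36.6% overlapped in part.

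The distance between summits varied little with peak score. Its median was 30, 29, 29 and 31 bp from the lowest to the highest quartile group of the β-catenin list by score. It was 33, 34, 31 and 26 bp over the same quartile groups of the p300 list. It did vary with width, from a median of 24 bp at β-catenin peaks of up to 500 bp, through 33 bp at those of up to 1000 bp, to 61 bp at the 471 pairs with a wider one. Pairs with summits over 500 bp apart made up 1.73%.

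Few peaks lay at the edge of the overlap rule. The shortest overlap was 7 bp, and 6 of the 5902 pairs overlapped by under 100 bp. The closest unshared peak ended 11 bp from the other list, and 15 unshared β-catenin and 13 unshared p300 peaks were under 100 bp from it. An unshared β-catenin peak was a median of 32176 bp from the nearest p300 summit on its chromosome or scaffold, over the 10156 peaks that had one. The corresponding distance of an unshared p300 peak was 27653 bp, over 9070 peaks. Within 1 kb, 1.88% of the unshared β-catenin and 1.98% of the unshared p300 peaks had a summit of the other protein, and within 12500 bp 31.2% and 33.3% did. Within 100 kb these shares were 71.1% and 75.9%.

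**Figure D1:**
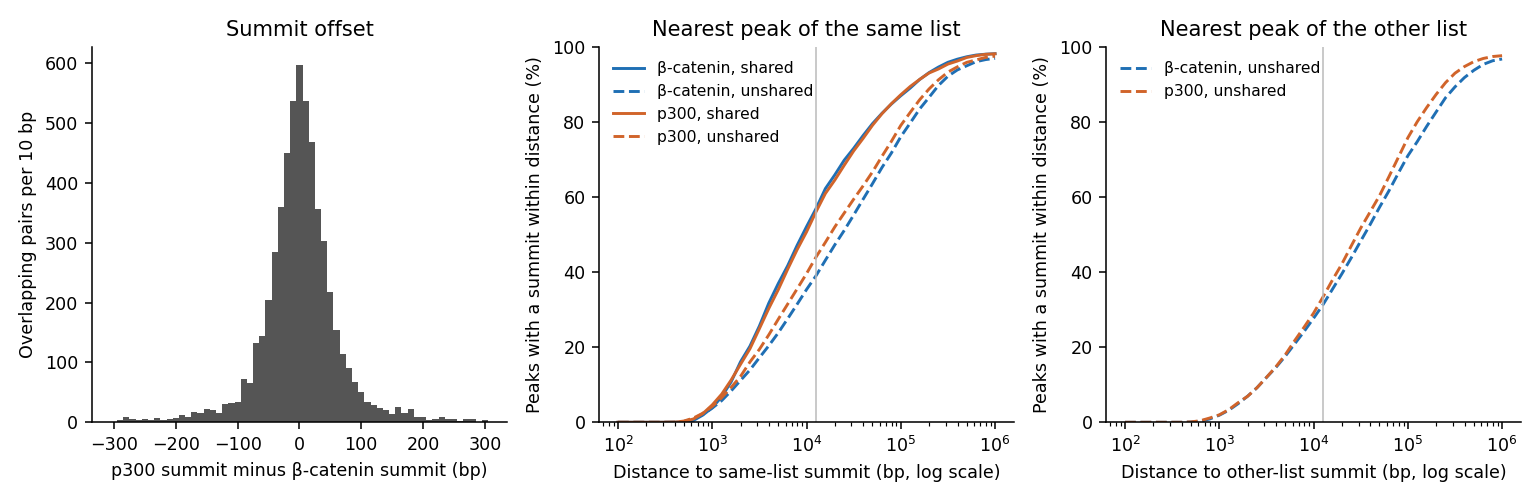
Left, number of overlapping pairs per 10 bp of summit offset (p300 minus β-catenin, bp; 191 pairs beyond 300 bp are not drawn); middle and right, percentage of peaks with a summit of the same or of the other list within a given distance (bp, log scale), the grey line marking 12500 bp. The offsets, in reference coordinates without orientation by strand, centre on 0. Shared peaks of both proteins (solid) have closer neighbours of their own kind than unshared ones (dashed).

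Sharing was one to one in nearly every case. A single p300 partner was found for 5829 shared β-catenin peaks, a pair of partners for 35, and 3 partners for 1 peak, chr5L:56913020-56915415. This peak was 2396 bp wide, with a fold enrichment (ChIP pileup over local background, the authors' value) of 24.3. Its p300 peaks had folds of 7.91, 9.29 and 8.21, and their summits lay 1811, 869 and 9 bp from its own. Of the shared p300 peaks, 7 met more than 1 β-catenin peak. The first of these by position, chr1L:43756034-43756616, ranked 20th in the p300 list by score with an 18.5-fold enrichment. It met β-catenin peaks of 10.3-fold and 7.60-fold enrichment, 37 and 624 bp away by summit.

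Sharing rose with the authors' score in both lists. The score is 10 times the −log10 p-value of the peak caller, and lists were ranked by it. From the lowest to the highest decile of the β-catenin list, the share with p300 went from 24.5% (interval 22.4 to 26.6) to 55.7% (interval 53.3 to 58.2). In the p300 list, the share with β-catenin went from 21.9% (interval 19.9 to 24.1) to 70.2% (interval 67.8 to 72.5). Of the 100 highest scores, 55 β-catenin peaks (interval 44.7 to 65.0) and 78 p300 peaks (interval 68.6 to 85.7) were shared, and of the 10 highest in each list 5 were shared (interval 18.7 to 81.3).

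Fold enrichment was related to sharing in different ways in the 2 lists. Shared p300 peaks had a median fold of 8.66 (quartiles 7.21 and 10.6), against 7.78 (quartiles 6.80 and 9.04) for unshared ones, and 60.3% of them (interval 59.1 to 61.6) exceeded the median of their list. Shared and unshared β-catenin peaks had nearly the same median, 12.04 (quartiles 9.59 and 16.0) and 12.19 (quartiles 10.1 and 15.5). The relation to sharing was not monotonic. The share of β-catenin peaks with p300 was 47.9% in the lowest decile by fold (interval 45.4 to 50.3), fell to 28.5% in the fifth decile (interval 26.3 to 30.8) and was 40.7% in the highest decile (interval 38.3 to 43.1). The share of p300 peaks with β-catenin stayed between 29.0% and 33.9% in the 5 lower deciles and rose to 64.6% in the highest. By fold, the top 100 of β-catenin held 27 shared peaks (interval 18.6 to 36.8), and the top 100 of p300 held 68 (interval 57.9 to 77.0). The share of the whole β-catenin list, 36.0%, lies inside the first interval. In the top 500 and top 1000 by fold, 41.8% and 40.4% of β-catenin peaks were shared, and 71.0% and 68.5% of p300 peaks.

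**Figure D2:**
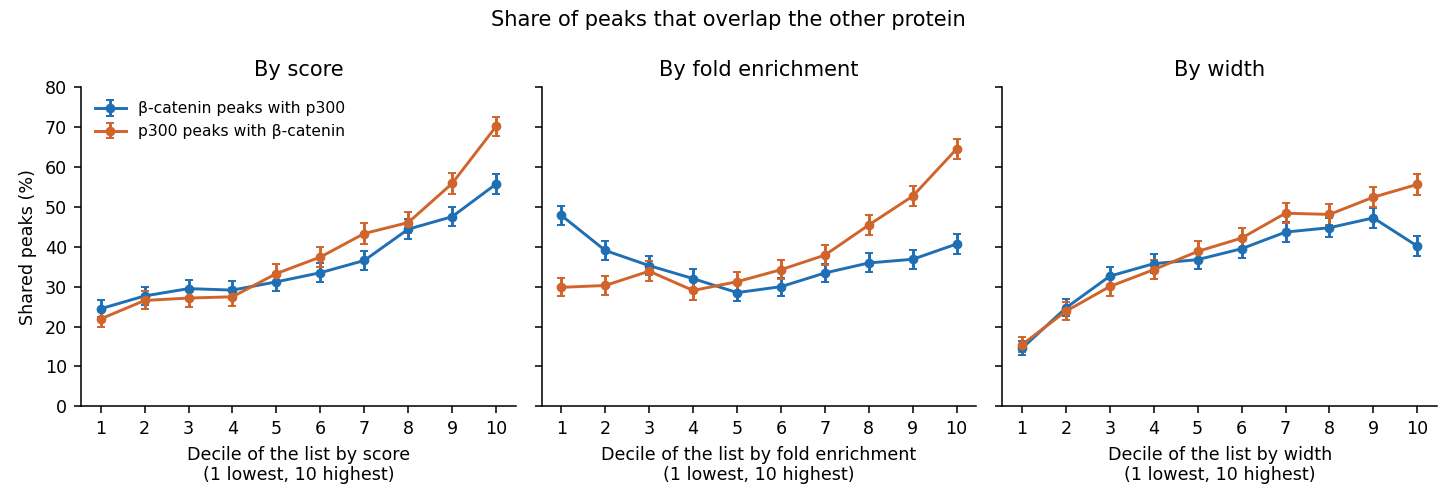
Percentage of shared peaks (with exact 95% intervals) in each decile of the β-catenin list (blue) and of the p300 list (orange), ordered by score, by fold enrichment and by width. Both lists rise with score, from 24.5% to 55.7% and from 21.9% to 70.2%, whereas β-catenin by fold is highest in the lowest decile, at 47.9%.

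At like score, β-catenin peaks of lower fold met p300 more often than those of higher fold. Score and fold both depend on the ChIP pileup and the local background, and they were correlated across β-catenin peaks (Spearman's rho 0.807, n = 16303) and p300 peaks (0.778, n = 15146), each set from 1 pooled call. Each list was therefore split into quartile groups by score and each of these into quartile groups by fold. In the lowest score quartile group of β-catenin, 475 of the 1019 lowest-fold peaks were shared (46.6%, interval 43.5 to 49.7), but 72 of the 1019 highest-fold peaks (7.07%, interval 5.57 to 8.82). Their median folds were 7.68 and 11.8. The share fell from the lowest to the highest fold quartile group in the other 3 score quartile groups too, from 49.95% to 10.7%, from 55.7% to 16.3% and from 62.6% to 40.9%. In the p300 list the share was also lower at the highest than at the lowest folds in all score quartile groups but the highest, by smaller steps. It went from 28.1% to 21.8% in the lowest score quartile group, and from 33.8% to 27.1% and from 43.9% to 40.1% in the next ones. In the highest it rose from 53.4% to 68.8%.

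The other deposited lists followed the same grid. In the lowest β-catenin score quartile group, 28.2% of the lowest-fold and 7.46% of the highest-fold peaks met a Smad1 peak of whole embryos. A p300 peak of whole embryos was met by 14.2% and 1.77%. In this score quartile group Smad1 was met by 39.9% of shared and 9.77% of unshared peaks. Whole-embryo p300 was met by 19.2% and 2.81%. The shares with the whole-embryo lists thus in part restate the difference in sharing. The median widths of the lowest-fold and highest-fold sets were 462 and 419 bp, and 93.8% and 91.6% of them lay on named chromosomes. The contrast in sharing was present among β-catenin peaks of middle width as well, with 52.7% and 9.96% shared, a setting chosen after the grid had been seen.

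**Figure D3:**
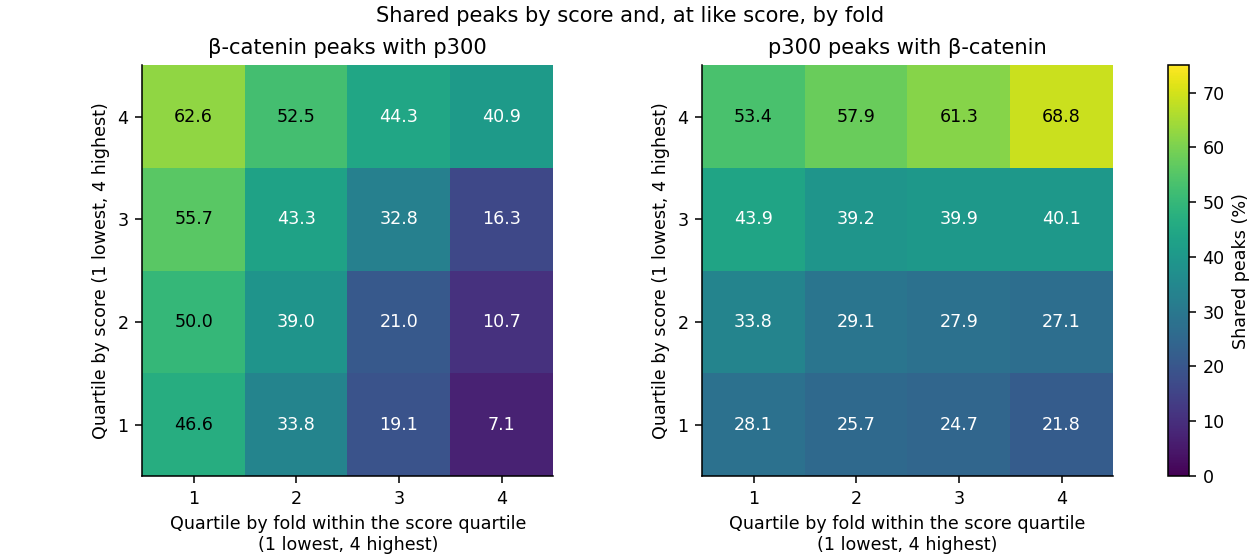
Percentage of shared peaks in quartile groups of each list by score (rows) and, within each score quartile group, by fold enrichment (columns). In the β-catenin list the percentage falls along each row, from 46.6% to 7.07% at the lowest scores. In the p300 list it moves less. It ends lower than it starts in all rows but the highest, from 28.1% to 21.8% at the lowest scores, and goes up from 53.4% to 68.8% at the highest.

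The folds of the partners were only loosely related. Across the 5902 pairs, Spearman's rho was 0.15 for fold, 0.23 for score and 0.52 for width. The points share the pooled libraries and neighbouring positions, so no p is attached. Both folds were above the medians of their lists in 32.0% of the pairs and both at or under them in 22.4%. The p300 fold alone was above in 28.4%, and the β-catenin fold alone in 17.3%.

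The pairs strongest in both lists were taken by the sum of their score ranks. The lowest sum belonged to chr5L:123040630-123041401, which ranked 15th in the β-catenin list (38.1-fold), with a p300 peak ranked 93rd (15.6-fold). The next was Scaffold36:1643354-1644133, with ranks of 105 and 10 and folds of 28.8 and 20.4. It was followed by chr7S:16939157-16940033, with ranks of 64 and 55 and folds of 27.8 and 15.3. The peaks at chr1L:28148697-28149452 (29.6-fold and 16.3-fold) and chr3S:33569008-33569820 (29.2-fold and 12.7-fold) completed the 5 best pairs. Summits were 14 to 31 bp apart in these 5 pairs. Each of the β-catenin peaks also met a whole-embryo Smad1 peak, as did 78.6% of all shared β-catenin peaks in the highest score quartile group.

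The leading shared β-catenin peaks had p300 partners near the median fold of that list, 8.04. Scaffold62:640508-641531, first in the β-catenin list with 50.4-fold enrichment, met a p300 peak of 7.57-fold enrichment that ranked 9943rd. chr3L:33594399-33595100 (40.8-fold) met one of 9.21-fold, and chr5S:61738477-61739096 (39.9-fold) met one of 8.46-fold. None of these leading β-catenin peaks met a whole-embryo Smad1 peak, unlike those of the lowest rank sums. The leading shared p300 peaks covered a wider range of partners. chr2S:46674877-46675483, with 27.9-fold enrichment, met a β-catenin peak of 8.66-fold that ranked 13525th. chr1L:144805986-144806658 (25.1-fold) met a β-catenin peak 2604 bp wide with 19.2-fold enrichment, and chr6L:20855207-20856040 (22.3-fold) met one of 17.3-fold. Each of these leading p300 peaks met a whole-embryo Smad1 peak.

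Partners could differ widely in rank. At chr7S:4526177-4526671 β-catenin was enriched 25.5-fold, at score percentile 97.5 of its list, and p300 6.38-fold, at score percentile 2.65, with summits 44 bp apart. Tied scores were given their mean rank for these percentiles. chr4L:139536065-139536633 (22.8-fold and 5.73-fold) and chr4L:73813207-73813918 (38.5-fold and 8.02-fold) differed in the same direction, with summits 30 and 161 bp apart. In the opposite direction, at Scaffold58:928919-929368, p300 was enriched 24.7-fold, at score percentile 99.9 of its list, and β-catenin 8.59-fold, at score percentile 2.36, with summits 20 bp apart. chr8L:109876082-109876694 had folds of 7.79 for β-catenin and 14.0 for p300, and chr1L:111355874-111356941 had 6.65 and 14.0, with summits 21 and 31 bp apart.

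The leading unshared peaks of both lists were also set beside the whole-embryo lists. The unshared β-catenin peaks with the highest scores were chr4L:130282956-130284347 (46.7-fold), chr3L:38436075-38437130 (33.5-fold) and chr4L:4189893-4190627 (34.4-fold). Their distances to the nearest p300 summit were 2556, 322822 and 10792 bp, and none of them met a peak of either whole-embryo list. The unshared p300 peaks with the highest scores were chr1S:125150208-125150693 (25.3-fold), chr1L:151458579-151459001 (24.5-fold) and chr3L:79749242-79750013 (24.3-fold). They lay 118094, 157682 and 81156 bp from the nearest β-catenin summit, and each met a p300 peak of whole embryos but no Smad1 peak. Among all unshared peaks of the highest score quartile group, 3.64% of β-catenin and 23.3% of p300 peaks met whole-embryo p300. Unshared β-catenin peaks lack explant p300 by definition, and unshared p300 peaks have it, so these shares cannot be compared between the proteins. Smad1 was met by 16.2% and 18.7%. With 3 peaks named per list, no difference between the lists is drawn from them. The highest fold of each list was also unshared, with 66.5 for β-catenin at chr1S:111926002-111926738 and 29.5 for p300 at chr1S:31405542-31406018.

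Shared peaks were wider than unshared ones. The median width was 560 against 491 bp for β-catenin and 458 against 382 bp for p300. From the narrowest to the widest quartile group, the share of β-catenin peaks with p300 was 21.9%, 35.8%, 42.2% and 44.0%, and that of p300 peaks with β-catenin 21.3%, 35.6%, 45.6% and 53.2%. By decile, the β-catenin share reached 47.2% in the ninth (interval 44.8 to 49.7) and was lower in the widest, at 40.2% (interval 37.8 to 42.6). A wide peak can meet another list more easily than a narrow one, so windows of 400 bp around each summit, the same for all peaks, were also used. By these, 35.3% of β-catenin and 38.0% of p300 peaks were shared. Peaks above the median width of the β-catenin list then made up 59.2% of its shared and 44.7% of its unshared peaks, against 59.8% and 44.2% by the main rule. For p300 these shares were 63.1% and 41.6%, against 63.0% and 41.3%. Within the narrowest quartile group the median β-catenin fold was lower at shared peaks, at 9.95 against 11.5, and within the widest it was higher, at 14.6 against 13.2. For p300 the shared peaks had the higher median fold in each of the 4 width quartile groups, with 7.81 against 7.62 in the narrowest and 9.38 against 7.91 in the widest.

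Shared peaks lay closer to other peaks of their own list. Another β-catenin summit was within 12500 bp of 56.8% of the shared (interval 55.5 to 58.1) and 39.0% of the unshared β-catenin peaks (interval 38.0 to 39.9). Another p300 summit was within 12500 bp of 55.9% of the shared (interval 54.6 to 57.2) and 43.9% of the unshared p300 peaks (interval 42.9 to 44.9). The difference was present in each score quartile group: among the highest-scoring β-catenin peaks, 61.0% of those with such a neighbour and 37.7% of those without one were shared, and among the lowest-scoring 32.5% and 22.7%. For p300 the shares were 66.4% and 52.2% in the highest score quartile group and 28.4% and 22.7% in the lowest.

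Sharing also differed with the nearest neighbour. A β-catenin peak whose nearest β-catenin neighbour within 12500 bp was shared was itself shared in 53.0% (interval 51.3 to 54.7), against 38.4% (interval 36.9 to 39.9) beside an unshared neighbour and 28.5% with no neighbour. For p300 these shares were 57.8% (interval 56.1 to 59.5), 34.1% (interval 32.7 to 35.6) and 33.4%. A p300 peak beside an unshared neighbour was thus shared about as often as an isolated one. Shared β-catenin peaks also had a further p300 summit, beyond the one they met, within 12500 bp in 55.5% (interval 54.3 to 56.8), against 31.2% of the unshared peaks with any p300 summit at that distance. For p300 peaks and β-catenin summits these shares were 56.8% and 33.3%.

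Joined into runs with gaps between summits of at most 12500 bp, the peaks of both lists formed 16470 runs. Of these, 9974 were single peaks, 6186 held only β-catenin, 5106 only p300 and 5178 both. In 4324 of the mixed runs at least 1 peak was shared, whereas in 854 the proteins lay side by side without meeting. Where a run held exactly 1 peak of each, they overlapped in 1849 of 2396 cases. Of the 172 runs with 10 or more peaks, 170 held a shared peak and 1 was made of a single list. Over the whole lists 36.0% of β-catenin and 38.9% of p300 peaks were shared. A run of that many peaks would thus mostly hold a shared one by number alone. β-catenin peaks that were alone of their kind in a run were shared in 27.7% (interval 26.8 to 28.7), and in runs of 5 or more β-catenin peaks 868 of 1736 were shared (interval 47.6 to 52.4). For p300 the same shares were 32.6% (interval 31.6 to 33.7) and 54.1% (interval 51.5 to 56.6).

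The runs with the most shared β-catenin peaks held both proteins, as their choice requires, and unshared peaks besides. The run at chr6L:39581923-39695665 held 27 β-catenin and 14 p300 peaks, 12 of each shared, with β-catenin folds of 7.42 to 33.0 and p300 folds of 6.08 to 12.7. The run at chr1L:170118453-170211601 held 19 and 16 peaks, of which 11 and 12 were shared, with β-catenin folds of 8.06 to 17.0 and p300 folds of 6.59 to 18.9. The run at chr1S:141037522-141132748 held 18 and 16 peaks, 10 of each shared. The runs with the most peaks and none shared were nearly of 1 protein, and a choice for no shared peak favours such runs. At Scaffold20:4212405-4260227, 10 β-catenin peaks of 7.32-fold to 17.9-fold enrichment stood with 1 p300 peak. At chr9_10L:40614301-40651417 there were 10 p300 peaks of 5.96-fold to 9.71-fold enrichment and no β-catenin peak, and at chr9_10L:18106432-18143020 8 p300 peaks of 7.77-fold to 15.7-fold stood with 1 β-catenin peak.

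**Figure D4:**
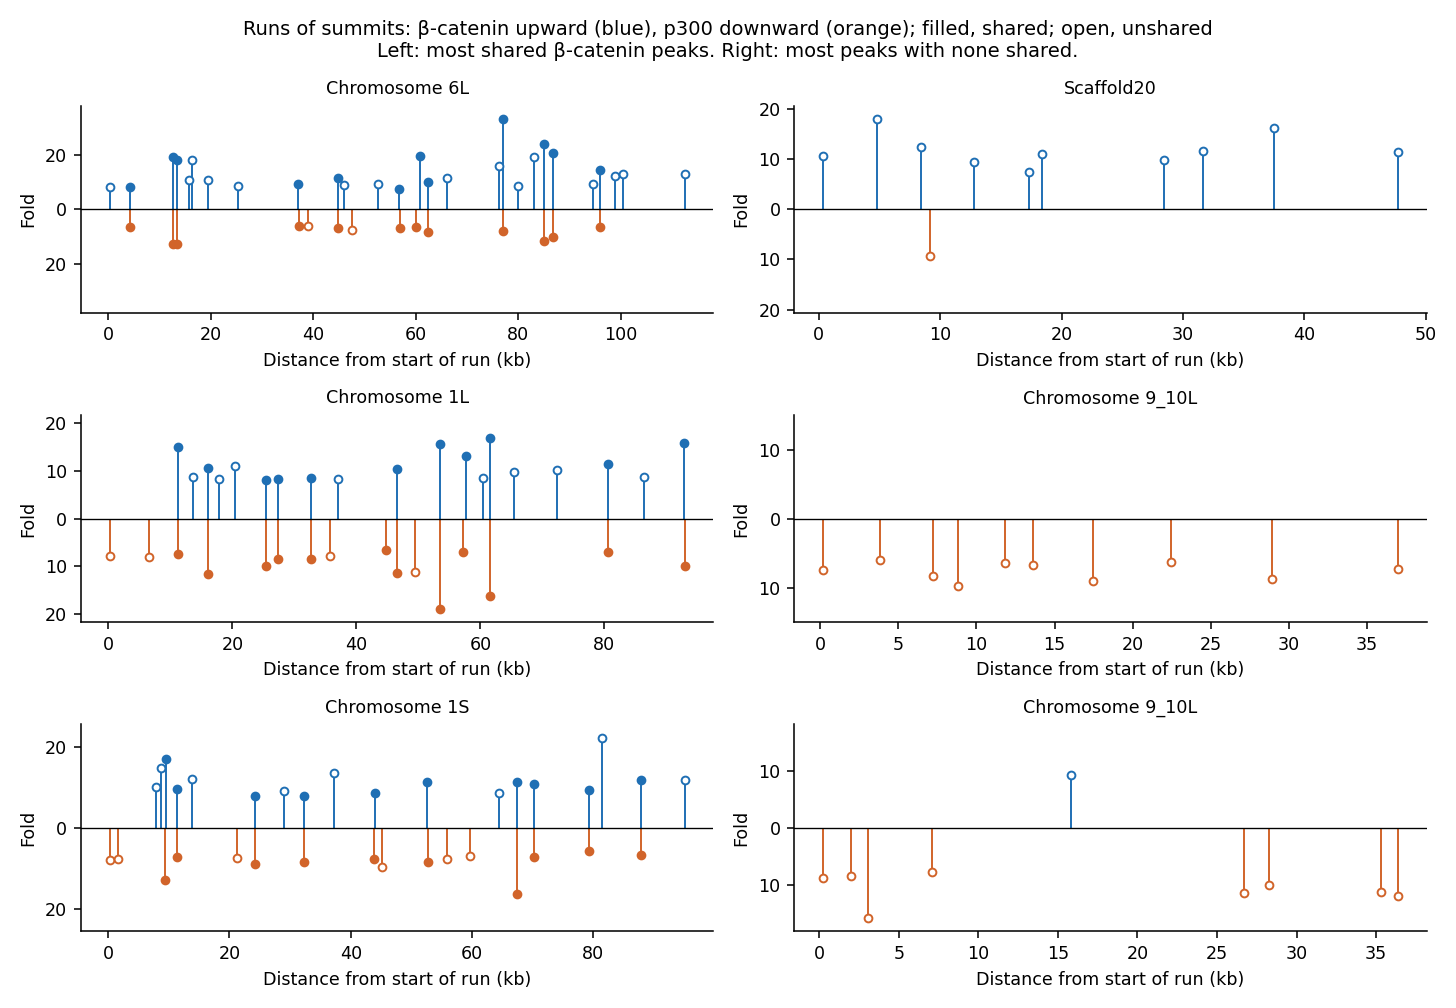
Summits of 6 runs by distance from the start of the run (kb), with the fold enrichment of β-catenin drawn upward (blue) and of p300 downward (orange); filled circles are shared and open circles unshared peaks. In the left panels (chromosomes 6L, 1L and 1S), chosen for the most shared β-catenin peaks, most p300 summits face a β-catenin summit. The right panels, chosen for having no shared peak, hold mainly 1 protein each.

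The lists followed each other closely along the chromosomes. Over 2415 windows of 1 Mb with a peak, the numbers of β-catenin and p300 peaks had a Spearman's rho of 0.74. Shared sites count in both numbers, so this value in part restates the overlap, and none is given for unshared peaks alone. Windows differ in gene content and in mappable sequence, and neighbouring windows are not independent. Both proteins were present in 2163 windows, β-catenin alone in 167 and p300 alone in 85, and 473 of the windows with both had no shared peak. The most shared β-catenin peaks, 20 of 34, were between 130 and 131 Mb of chromosome 4L, which held 25 p300 peaks. The window with the largest surplus of p300 was at 26 to 27 Mb of chromosome 8S, with 27 p300 and 7 β-catenin peaks, 2 of each shared. The largest surplus of β-catenin was at 148 to 149 Mb of chromosome 2L, with 40 β-catenin and 12 p300 peaks, 8 of each shared. These windows were chosen after their values had been seen.

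Sharing was also compared over the chromosomes of this allotetraploid frog, which carries a long (L) and a short (S) version of each. Over the 18 chromosomes the share of β-catenin peaks with p300 ranged from 32.9% on 9_10S (interval 29.6 to 36.4) to 40.2% on 7S (interval 35.9 to 44.5). The share of p300 peaks with β-catenin ranged from 31.7% on 8S (interval 28.0 to 35.6) to 43.0% on 3S (interval 39.0 to 47.1). The intervals of the lowest and highest chromosome overlapped for β-catenin but not for p300. These chromosomes are the extremes of 18, and the intervals take in counting error alone, although shared peaks lie near each other. Whether intervals overlap is therefore no test of a difference between chromosomes. For p300 the 8S interval also lay below those of several other chromosomes, such as 6L (interval 38.2 to 44.9) and 7L (interval 39.3 to 46.2). The share was higher on L than on S in 7 of 9 chromosome pairs in either list, but both counts draw on the same overlaps and are not independent. Over all chromosome pairs the β-catenin share was 37.0% on L (interval 36.0 to 38.0) and 35.0% on S (interval 33.8 to 36.2). For p300 it was 39.7% (interval 38.6 to 40.7) and 38.2% (interval 36.9 to 39.5). Within a pair, the intervals of L and S were apart only for p300 on 8L (38.8%, interval 35.7 to 42.1) and 8S, and there only narrowly. Without the p300-rich window named above, the share on 8S was 32.8% (interval 29.0 to 36.8), whose interval reaches that of 8L. That window was chosen for its surplus of p300 and left out on 8S only, which by itself raises the share. The removal therefore says nothing about the difference between 8L and 8S. Chromosomes 8L and 8S were also the only named chromosomes with more p300 than β-catenin peaks, 909 against 908 and 600 against 549.

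**Figure D5:**
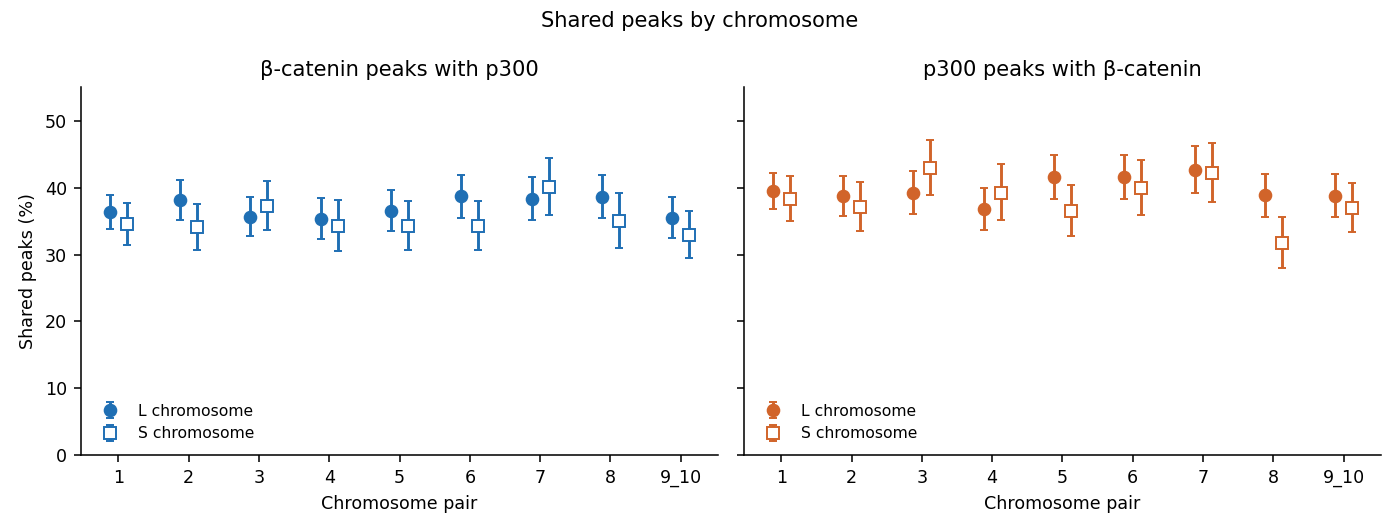
Percentage of β-catenin peaks (left) and p300 peaks (right) that were shared, on the L (filled circles) and S (open squares) member of each chromosome pair, with exact 95% intervals. Most intervals overlap, and the lowest value, 31.7%, is that of p300 on 8S.

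Peaks on scaffolds were shared a little less often than those on named chromosomes, with 32.8% (interval 29.9 to 35.8) against 36.2% (interval 35.4 to 37.0) for β-catenin and 36.3% (interval 33.2 to 39.5) against 39.1% (interval 38.3 to 39.9) for p300. The widest β-catenin peak, Scaffold555:1-7296, covered the scaffold from its first base at 2.71-fold enrichment and was unshared. Scaffolds held 1019 β-catenin and 925 p300 peaks.

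Shared peaks met the whole-embryo lists more often than unshared ones did. These lists came from 1 ChIP library each in the labels, with no treatment named. The title of the Smad1 list names IDR and its peak names state pooling, but the title of the whole-embryo p300 list names no IDR. The shares with Smad1 and with whole-embryo p300 are therefore not comparable with each other. A p300 peak of whole embryos was met by 30.2% of the shared explant p300 peaks (interval 29.0 to 31.4) and by 9.87% of the unshared ones (interval 9.27 to 10.50). The order held within each score quartile group, with 48.2% and 23.3% in the highest and 11.1% and 5.07% in the lowest. Whole-embryo Smad1, the DNA-binding effector of BMP signalling, was present at 62.7% of the shared explant p300 peaks and 10.7% of the unshared ones. In the highest score quartile group these shares were 79.6% and 18.7%, and in the lowest 40.4% and 6.77%. At β-catenin peaks of the highest score quartile group, Smad1 was present at 78.6% of the shared and 16.2% of the unshared peaks, and in the lowest quartile group at 39.9% and 9.77%.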

How the data were processed

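ChIP-seq peak lists of β-catenin and p300 from pooled foregut and hindgut explants were used. The submitters' processing notes name MACS2, Bowtie2, SAMtools, Picard, Trimmomatic and FastQC, but no version and no order. The deposited columns hold each peak's position, a score, a fold enrichment (ratio of ChIP over local background), a −log10 p-value and a summit offset. In both deposited lists the score equals 10 times the −log10 p-value cut to a whole number, and its lowest −log10 p was 78.6 for β-catenin and 23.1 for p300, so weaker sites were not seen. List titles name IDR, with settings not given in the sources used here. Folds, scores and widths were compared within a list only.

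Overlaps (at least 1 bp), summit distances, quartile groups and deciles were computed with Python 3.11.15 and pandas 2.3.3, and intervals with scipy 1.17.1. The overlap counts were checked against bedtools 2.31.1 and on simulated data. Summits are the start plus the deposited offset, and coordinates are given from 1. Repeated intervals of the whole-embryo p300 list were counted once. Peaks named were the 3 highest scores of each class, the 5 lowest rank sums, the 3 largest rank differences each way, the 3 leading runs of each kind and the peaks with most partners, ties by position; windows and the highest folds or widths were chosen after seeing values. The peaks and comparisons were chosen with earlier results of these data known. Read depth is unknown. Gene names were left out, because no annotation known to be of the lists' build was used here.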

Additional observations from a re-analysis of the deposited data

How the results depend on the processing

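Of 47 changes of a single setting, 34 left the value inside its exact 95% interval, and shared peaks kept their order against unshared ones in the 34 changes that give both. In the higher-scoring 50% of each list, 30.5% of β-catenin and 32.9% of p300 peaks were shared, 46.1% of the shared β-catenin peaks were above the list's median fold, 48.4% and 46.0% of shared peaks had a neighbour within 12500 bp, and 72.6% of the pairs had summits within 50 bp. These lists hold fewer peaks to meet. With windows of 400 bp, 38.0% of p300 peaks were shared, and 72.2% of the pairs had summits within 50 bp. With neighbours within 5 kb the shares of shared β-catenin and p300 peaks were 36.9% and 35.3%, within 25 kb 69.9% and 68.5%, and 88.2% of summits lay within 100 bp. Of 16 changes for the grid of score and fold, added after seeing the data, 13 stayed inside the interval. At middle width the lowest scores gave 52.7% and 9.96% for β-catenin at the lowest and highest folds, and 25.7% for p300 at the highest folds. No paired analysis was possible because each protein has 1 pooled list. Depth is unknown, and sites under the score limits of the lists could not be counted.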
